A study of Mus musculus with 6 samples.

Results

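The genes described here are the kallikreins (Klk), the serpins (Serpin) and the Kazal-type inhibitors (Spink) of the mouse, a set of secreted serine proteases and of the inhibitors that act on serine proteases. They were chosen by name, as every gene whose symbol on the bead array starts with Klk, Serpin or Spink, with the enamel protease Klk4 left out. The rule found 82 genes of 16593 with a probe, of which 23 were Klk genes, 49 were serpins and 10 were Spink genes. All 82 matched a gene of the mouse RefSeq annotation under the same symbol.

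RNA came from the lower incisors of C57BL/6 mice at 4 wk of age, from soft dental tissue dissected out at the cervical loop (CL), where the epithelial stem cells lie, the secretory stage (Sec), where enamel matrix is laid down, and the maturation stage (Mat), where the enamel hardens. All mice carried MED1 fl/fl alleles, with exons 8 to 10 of this transcriptional coactivator floxed. In the knockout (KO) a Cre recombinase driven by the keratin 14 promoter removed Med1 from epithelia, while control littermates (CON) had no Cre, and cells of the tissue that do not express keratin 14 kept the gene in both genotypes. Each genotype and stage had 1 array, made from the pooled tissue of 3 mice, so that no spread between animals can be given and none of the differences within a stage has a p-value. Arrays of mice at 10 wk were not analysed here.

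Tissue kallikreins of the epidermis are released as inactive precursors and activate each other in a cascade, in which Klk5 activates Klk7. Together they cleave corneodesmosin and the desmosomal cadherins that hold dead surface cells together, and they are best known for the shedding of the horny layer. Serpins trap proteases by an irreversible change of shape, although some members, such as Serpinh1, a chaperone of collagen, inhibit no protease. Kazal-type inhibitors block the active site of trypsin-like proteases reversibly, and in human skin such an inhibitor holds the kallikreins in check.

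Of the 82 members, 28 were detected on at least 1 array (a detection p under 0.01 in the deposited table) and 54 on none, so 34.1% were detected somewhere against 58.7% of all genes. All 12 glandular kallikreins (Klk1 and the Klk1b genes) and the plasma kallikrein Klkb1 were detected on no array. Among the other Klk genes 8 of 10 were detected, the exceptions being Klk9 and Klk14. Of the serpins, 7 of 16 in clade A (secreted inhibitors related to antitrypsin), 9 of 25 in clade B (mostly intracellular inhibitors) and 3 of 8 in clades C to I were detected. Spink8 was the 1 Spink gene of 10 with a detected probe. The skin inhibitor mentioned above (SPINK5 in humans) was not measured here, since Spink5 was not among these 10.

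The number of detected members rose along the incisor in both genotypes. It was 8 in CON at CL, 11 in CON at Sec and 12 in CON at Mat. In KO it was 11 at CL, 21 at Sec and 26 at Mat. Over all probes the detected share was nearly level, between 46.1% and 49.8% on the 6 arrays.

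**Figure D1:**
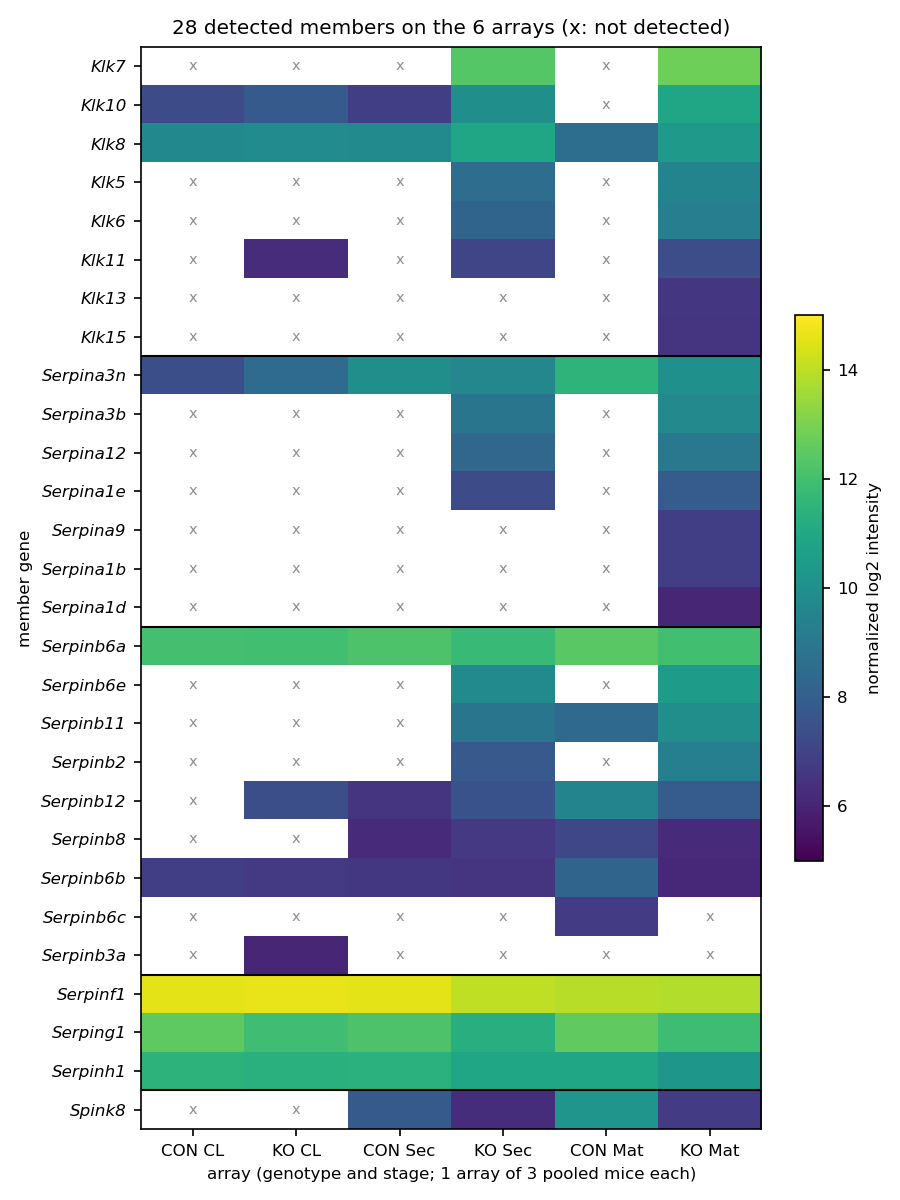
Normalized log2 intensity (colour) of the 28 detected members (rows, in blocks of Klk genes, clade A, clade B and clades C to I serpins, and Spink8) on the 6 arrays (columns, 1 array each), with a cross where a probe was not detected. Colours compare arrays within a row, since different probes bind differently. Detected members number 21 in KO Sec and 26 in KO Mat and at most 12 on the other 4 arrays.

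Levels are given as log2 intensities after background correction and quantile normalization, a scale on which the lowest detected value of an array lay between 5.83 and 6.19 and the highest was 15.32. A difference is KO minus CON on the log2 scale at 1 stage. A member counted as higher or lower at 1.5-fold or more (0.58 on the log2 scale) if the array with the higher level detected its probe. If the lower level was not detected, it was raised to the smallest detected value of its array, and the difference is a bound, written as at least so many fold. The targeted gene itself, Med1, was lower in KO by 0.54, 0.63 and 0.49 at CL, Sec and Mat; the sources do not place its probe against the floxed exons. All 5 ameloblast markers with a probe (among them Amelx, Ambn and Enam) were detected on all 6 arrays.

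At Sec, 13 of the 21 members detected on either array were higher in KO, where 11.7% of all genes were, and 2 were lower, where 15.2% were. At Mat, 14 of 27 were higher (12.6% of all genes) and 8 were lower (18.4%). At CL, 2 of 11 were higher (1.81%) and 0 were lower (2.0%). Bounds made up 10 of the 13 higher members at Sec and 12 of the 14 at Mat. The median difference over these members was 0.06 at CL, 1.13 at Sec and 0.65 at Mat, against -0.02, -0.10 and -0.14 over all genes. The members that enter at a late stage were in part those that only the KO array detected, so these medians describe them and support no more than that.

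**Figure D2:**
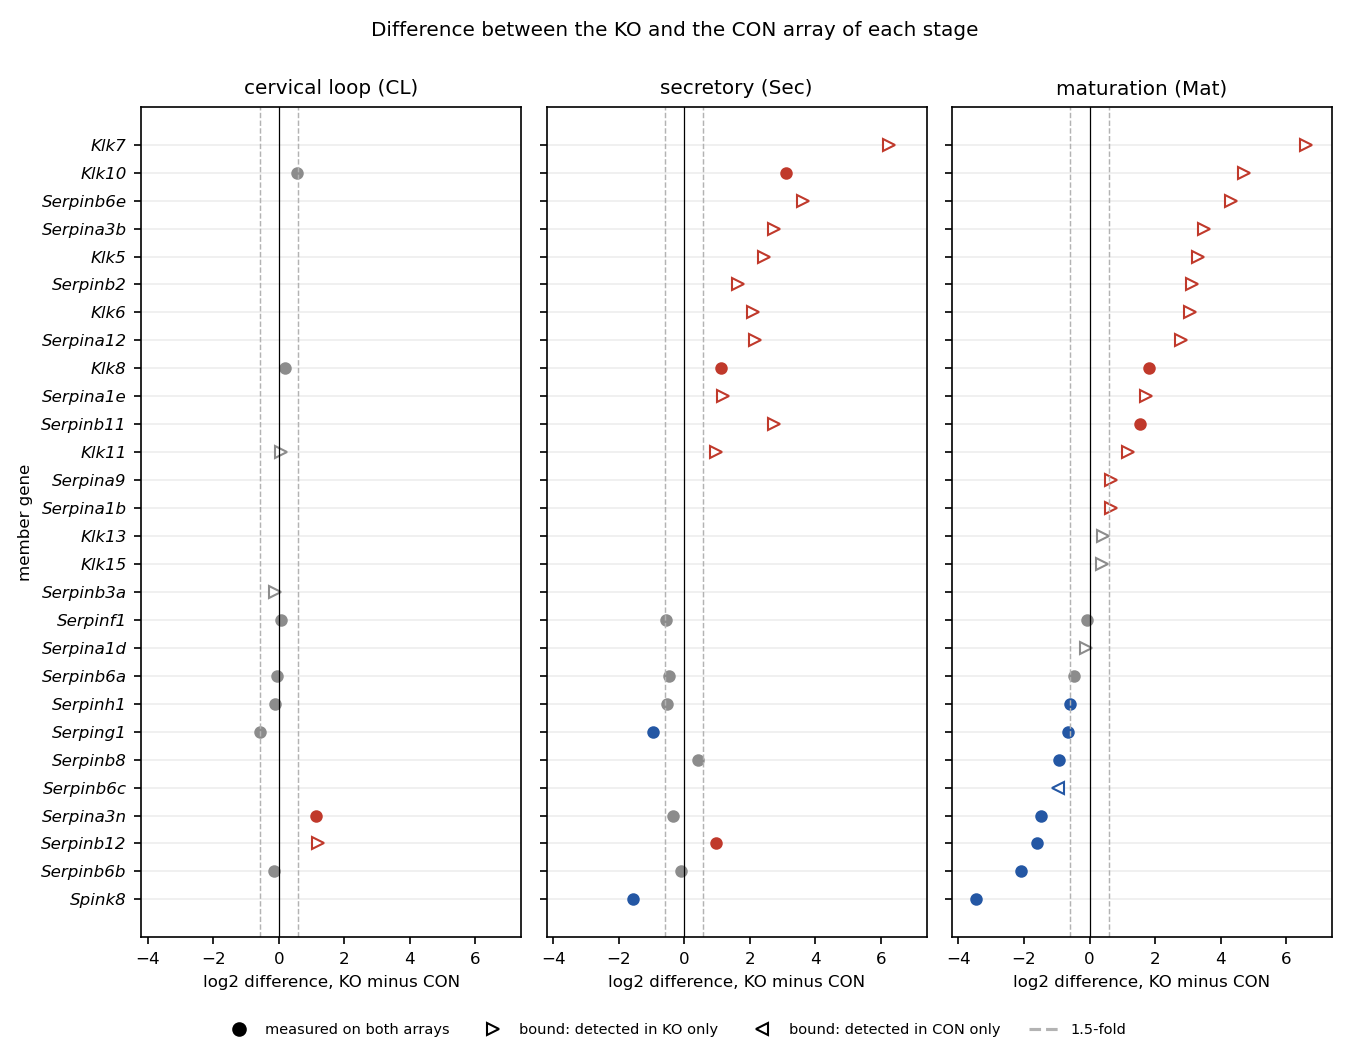
Log2 difference between the KO and the CON array (x axis) for each of the 28 detected members (y axis, ordered by the difference at Mat) at CL, Sec and Mat. Filled points were detected on both arrays, open triangles are bounds that point the way the true difference may exceed them, dashed lines mark 1.5-fold, and red and blue mark members counted as higher and lower. At Mat the values run from 6.62 for Klk7 to -3.46 for Spink8, while at CL none passes 1.20.

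Tissue of the late KO incisor also differed in cell types, and RNA of pooled tissue cannot tell fewer cells of a type from less RNA per cell. Of all genes, 11.7% were higher in KO at Sec and 12.6% at Mat. All 6 markers of epidermis (Krt1, Krt10, Lor, Ivl, Flg2 and Cdsn) were higher in KO at Sec and at Mat. Their summed intensity was 1304, 1156 and 1483 in CON at CL, Sec and Mat and 3329, 32063 and 45207 in KO, and Krt1, Ivl, Flg2 and Cdsn were not detected on any CON array. All 5 hair keratins with a probe were higher at Sec and Mat too, with sums of 913, 519 and 221 in CON and 393, 84720 and 118553 in KO. Markers of melanocytes were higher as well (4 of 4 at both stages, with sums of 450 and 838 in CON and 6014 and 9226 in KO at Sec and Mat), and so were those of skeletal muscle (6 of 6 at Sec and 3 of 6 at Mat, with sums of 3913 and 20153 in CON and 27241 and 37938 in KO). The part of these cell types in the changes of the members was not tested.

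Among the tissue kallikreins, Klk5, Klk6 and Klk7 appeared in KO at Sec and Mat alone. They lie side by side on chromosome 7 in the order Klk14, Klk13, Klk11, Klk10, Klk9, Klk8, Klk7, Klk6, Klk5 and Klk15 (of the measured genes other than Klk4, which lies between the last pair). Their start regions, from 250 bases before to 50 after the annotated start, are shown for Klk7 and Klk5, which were detected in KO only, and for their neighbour Klk8, which was detected on every array. All are from RefSeq on the build GRCm38.p6, on the plus strand, at chr7:43811044-43811343 for Klk7, chr7:43842019-43842318 for Klk5 and chr7:43797327-43797626 for Klk8, with any match to the motifs named after them in capitals.
Klk7: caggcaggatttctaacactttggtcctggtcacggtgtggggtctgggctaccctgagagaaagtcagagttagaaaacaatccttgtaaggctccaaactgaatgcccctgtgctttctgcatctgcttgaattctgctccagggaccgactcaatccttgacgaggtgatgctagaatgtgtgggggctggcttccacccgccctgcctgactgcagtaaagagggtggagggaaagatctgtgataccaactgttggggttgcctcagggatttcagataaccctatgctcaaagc
Klk5: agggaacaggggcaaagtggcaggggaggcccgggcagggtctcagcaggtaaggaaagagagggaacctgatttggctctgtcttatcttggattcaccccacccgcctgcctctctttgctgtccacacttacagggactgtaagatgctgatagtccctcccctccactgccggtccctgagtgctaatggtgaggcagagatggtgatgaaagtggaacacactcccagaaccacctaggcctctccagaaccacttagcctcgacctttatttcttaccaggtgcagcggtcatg
Klk8: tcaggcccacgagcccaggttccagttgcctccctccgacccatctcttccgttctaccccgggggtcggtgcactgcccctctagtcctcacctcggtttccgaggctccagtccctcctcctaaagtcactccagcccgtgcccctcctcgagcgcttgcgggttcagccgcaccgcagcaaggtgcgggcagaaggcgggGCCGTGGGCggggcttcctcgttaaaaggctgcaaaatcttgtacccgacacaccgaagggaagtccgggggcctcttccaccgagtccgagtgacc

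The motifs searched on both strands were the AP-1 letters TGANTCA, the AP-2 letters GCCNNNGGC, the TATA box letters TATAAA, and the GATA letters TGATAA. Over the 32851 start regions of this length in the RefSeq table, 7.81% held the AP-1 letters, 16.6% the AP-2 letters, 13.6% the TATA box letters and 9.05% the GATA letters. In the 10 start regions of the 8 detected kallikreins there was 1 AP-2 match (Klk8, starting 47 bases upstream) and 1 TATA box match (Klk15, starting 30 bases upstream), and no match of the other motifs in these windows. Matches are letters in a window and were not tested as binding sites.

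Klk7, the chymotrypsin-like protease of the horny layer, had the widest difference of all members. Its log2 level was 4.72, 4.73 and 4.89 in CON at CL, Sec and Mat, all not detected. In KO it was 5.30 at CL, not detected, and 12.37 and 12.81 at Sec and Mat. The KO level was at least 75.6-fold higher at Sec and at least 98.5-fold higher at Mat, and nothing separated the genotypes at CL, where neither array detected the probe.

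Klk5, the trypsin-like protease that activates Klk7, was at 5.34, 4.94 and 4.88 in CON and at 4.77, 8.59 and 9.50 in KO (CL, Sec, Mat). It was at least 5.48-fold higher in KO at Sec and at least 9.87-fold at Mat. Klk6, a trypsin-like protease also known from the nervous system, stood at 4.78, 4.84 and 4.72 in CON and at 4.62, 8.23 and 9.26 in KO, at least 4.27-fold higher at Sec and at least 8.37-fold at Mat. Both genes thus had the pattern of Klk7, detected on the late KO arrays alone.

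In Klk10 and Klk8 the control tissue had a signal of its own. Klk10, whose protease activity is little understood, was detected in CON at CL (7.27) and Sec (6.86) but not at Mat (6.11), whereas in KO it was at 7.82, 9.98 and 10.89. The KO array was 8.71-fold higher at Sec and at least 25.9-fold higher at Mat, and the difference of 0.55 at CL did not reach 1.5-fold. Klk8 (neuropsin, a trypsin-like protease of skin and brain) was at 9.65, 9.75 and 8.60 in CON and at 9.83, 10.88 and 10.42 in KO. It was 2.19-fold higher in KO at Sec and 3.52-fold at Mat, and 1.13-fold at CL. In CON both fell from CL to Mat, Klk8 by 1.05 and Klk10 by at least 1.08 on the log2 scale, and in KO both were brighter at Mat than at CL.

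Klk11, another trypsin-like kallikrein, was not detected in CON (5.27, 4.90 and 5.17) and was detected at every stage in KO (6.26, 7.09 and 7.38). It was at least 1.95-fold higher at Sec and at least 2.27-fold at Mat. With the authors' normalized values, which are not background-corrected, the log2 bounds were 0.42 and 0.55 and neither reached 1.5-fold, and with the mean of its probes the bound at Sec was 0.49. Its second probe was detected on 2 arrays and differed by 0.49, 1.02 and 2.47 at CL, Sec and Mat, before any bound is set. Klk13 (6.60) and Klk15 (6.56) were detected in KO at Mat alone, just above the lowest detected value there of 5.83, and their bounds (0.41 and 0.37) did not reach 1.5-fold. In all, 6 kallikreins were higher at both Sec and Mat, 2 were seen at Mat only and none was lower in KO at any stage.

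**Figure D3:**
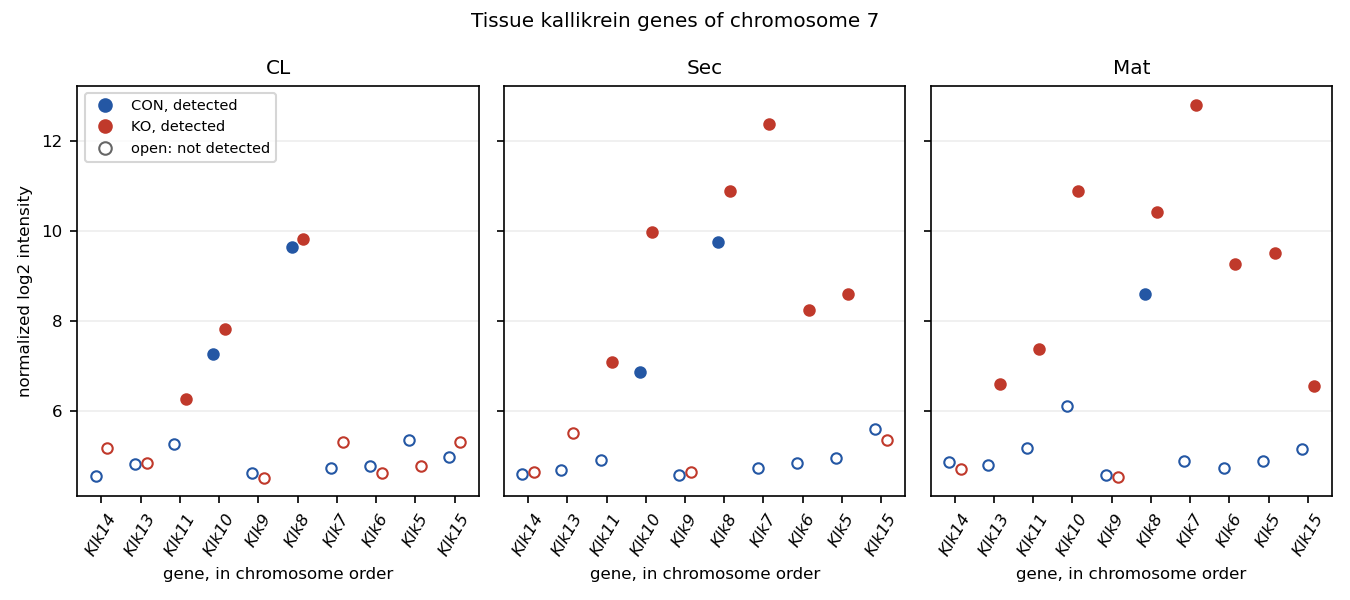
Normalized log2 intensity (y axis) of the 10 tissue kallikreins, in their order on chromosome 7 (x axis), in CON (blue) and KO (red) at CL, Sec and Mat, 1 array each. Filled points were detected and open points were not. At Sec and Mat 6 genes were higher in KO, with Klk7 at 12.37 and 12.81 in KO, and Klk9 and Klk14 were not detected on any array. Colours compare genotypes within a gene, not genes with each other.

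Serpins that appeared in KO came from clades A and B. Of these, Serpina3b, Serpina12, Serpina1e, Serpinb2 and Serpinb6e, were seen on the late KO arrays (Sec and Mat) alone, which, with Klk5, Klk6 and Klk7, makes 8 of the 82 members, where 1.72% of all genes had this pattern. Start regions are shown for Serpina3b, with the highest bound of clade A, and for Serpinb2, Serpinb11 and Serpinb8, clade B genes of chromosome 1 of which the first pair was higher in KO at Sec and Mat and the last lower at Mat. They lie on the plus strand of GRCm38.p6 at chr12:104127746-104128045 (Serpina3b), chr1:107511173-107511472 (Serpinb2, at the upstream of its annotated starts), chr1:107362064-107362363 (Serpinb11) and chr1:107589756-107590055 (Serpinb8). Capitals mark the same motifs.
Serpina3b: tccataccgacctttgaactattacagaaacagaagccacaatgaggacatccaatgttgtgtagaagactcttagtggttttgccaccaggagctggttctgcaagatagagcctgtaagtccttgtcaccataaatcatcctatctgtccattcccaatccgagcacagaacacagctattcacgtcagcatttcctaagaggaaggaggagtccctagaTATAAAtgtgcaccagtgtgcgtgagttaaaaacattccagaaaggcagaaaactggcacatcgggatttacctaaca
Serpinb2: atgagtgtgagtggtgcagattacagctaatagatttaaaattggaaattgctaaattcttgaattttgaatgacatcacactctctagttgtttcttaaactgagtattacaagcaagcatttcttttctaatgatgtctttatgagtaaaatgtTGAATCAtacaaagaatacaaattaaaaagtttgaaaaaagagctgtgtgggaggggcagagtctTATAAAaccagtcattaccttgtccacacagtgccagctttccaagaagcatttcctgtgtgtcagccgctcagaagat
Serpinb11: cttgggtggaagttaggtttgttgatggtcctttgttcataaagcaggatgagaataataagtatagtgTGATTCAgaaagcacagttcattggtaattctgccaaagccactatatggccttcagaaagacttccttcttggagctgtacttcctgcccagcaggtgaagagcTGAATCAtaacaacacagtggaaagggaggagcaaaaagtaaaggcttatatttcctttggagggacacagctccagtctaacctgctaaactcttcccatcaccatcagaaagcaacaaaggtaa
Serpinb8: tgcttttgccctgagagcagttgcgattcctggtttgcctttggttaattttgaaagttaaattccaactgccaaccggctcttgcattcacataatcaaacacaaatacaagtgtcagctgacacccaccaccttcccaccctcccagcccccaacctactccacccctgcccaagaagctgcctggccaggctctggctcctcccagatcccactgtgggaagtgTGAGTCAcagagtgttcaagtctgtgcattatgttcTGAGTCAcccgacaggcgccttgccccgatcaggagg

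The AP-1 letters stood at 94 bases upstream of the start in Serpinb2, at 181 and 76 upstream in Serpinb11, and in Serpinb8 at 23 bases upstream and 13 downstream. The TATA box letters began 28 bases upstream in Serpina3b and 29 upstream in Serpinb2. Over all 25 detected members with a start region in the table (30 windows, some of them overlapping windows of the same gene), 23.3% of windows held AP-1 letters, 6.67% AP-2 letters, 26.7% TATA box letters and 0 of them GATA letters. AP-1 letters were found beside serpins that were higher in KO and beside Serpinb8 and Serpinb12, which were lower at Mat. These were 7 windows of 6 genes, since both windows of Serpinb2 held the same letters, and Serpina1b and Serpina1d are near-identical copies. None of the 10 windows of detected kallikreins held AP-1 letters, but 10 windows are too few to tell this from the 7.81% of all start regions. No matches of different motifs shared bases in these windows.

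Serpinb6e, from a mouse family related to human SERPINB6, an inhibitor of cathepsin G, was at 4.63, 4.79 and 4.74 in CON and at 4.71, 9.76 and 10.52 in KO. Its KO level was at least 12.3-fold higher at Sec and at least 20.1-fold at Mat. Serpina3b, a mouse relative of antichymotrypsin, was at 4.81, 4.65 and 4.63 in CON and 4.83, 8.87 and 9.69 in KO, at least 6.68-fold higher at Sec and at least 11.3-fold at Mat. After Klk7 and Klk10, these were the highest bounds at Mat.

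Serpina12 (vaspin, an inhibitor of Klk7) followed the same course, with 4.73, 4.71 and 4.85 in CON and 4.78, 8.29 and 8.99 in KO. Its bounds were 4.45-fold at Sec and 6.94-fold at Mat, although a second probe of the gene was detected on no array. With the mean of both probes the log2 bounds fell from 2.15 to 0.45 at Sec, which lost the call, and from 2.79 to 0.80 at Mat. Serpinb2, the plasminogen activator inhibitor type 2 of keratinocytes, was at 4.52, 4.60 and 4.63 in CON and 4.82, 7.78 and 9.31 in KO, at least 3.12-fold higher at Sec and at least 8.69-fold at Mat. A protease of the horny layer and a known inhibitor of it were therefore seen on the same KO arrays and on neither CON array of these stages.

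Antitrypsin genes of clade A were fainter. Serpina1e was at 4.80, 4.86 and 4.59 in CON and 4.70, 7.32 and 7.92 in KO, at least 2.28-fold higher at Sec and at least 3.30-fold at Mat. Serpina1b (6.84), Serpina1d (6.07) and Serpina9 (6.86, a serpin known from B cells) were detected in KO at Mat alone, where the bounds were 1.57-fold for Serpina1b and 1.59-fold for Serpina9, and Serpina1d allowed no fold. The Serpina1 genes are near-identical copies whose probes may share RNA, and a second Serpina1b probe was detected on no array, so which copy gave the signal is uncertain. The Serpinb6 genes of chromosome 13 are related copies as well.

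Serpinb11 and Serpinb12, clade B genes of chromosome 1, were present in control tissue at Mat and took different courses in KO. Serpinb11 was not detected in CON at CL (4.56) and Sec (4.54) and stood at 8.41 at Mat, while KO had 5.57 (not detected), 8.87 and 9.94. It was at least 6.66-fold higher in KO at Sec and 2.89-fold at Mat. Serpinb12, which in humans inhibits trypsin-like proteases, was at 4.80 (not detected), 6.56 and 9.52 in CON and at 7.39, 7.52 and 7.92 in KO. KO was at least 2.29-fold higher at CL and 1.95-fold higher at Sec, but 3.03-fold lower at Mat. With the authors' normalized values the differences at CL and Sec were 0.56 and 0.49, short of 1.5-fold. A second probe of Serpinb12 moved the same way, by 1.41, 1.35 and -1.60. The KO levels of Serpinb12 were thus nearly flat along the incisor while the CON levels climbed.

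Members that were lower in KO were found mostly at Mat. Spink8, the Kazal-type inhibitor with a signal here, had the deepest fall. It was not detected at CL in either genotype (4.86 in CON, 4.85 in KO), was at 7.85 and 10.20 in CON at Sec and Mat, and at 6.29 and 6.74 in KO. KO was 2.96-fold lower at Sec and lower by 3.46 on the log2 scale at Mat, with both genotypes detected at each of these stages. It was the single member lower by more than 1 on the log2 scale at Sec.

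Serpina3n, an acute phase serpin related to antichymotrypsin, was at 7.39, 9.96 and 11.51 in CON and at 8.51, 9.61 and 10.02 in KO. It was 2.17-fold higher in KO at CL, differed by -0.35 at Sec, and was 2.81-fold lower at Mat. At CL, 4 of 6 neutrophil markers (such as Ngp and Camp) were also higher in KO (1.81% of all genes). Their summed intensities there were 16734 in CON and 24681 in KO. At Sec, where Serpina3n was not higher, 5 of 6 were higher (11.7% of all genes) with sums of 4780 and 15182. At Mat the sums were 6849 and 10353, but only 1 of 5 detected markers was higher (S100a8, by 0.87), where 12.6% of all genes were. The median difference of these markers at Mat was 0.1. Their part in the level of Serpina3n was not tested. Serpinb6b was level at CL and Sec (6.85 and 6.61 in CON, 6.69 and 6.52 in KO), and at Mat stood at 8.24 in CON and 6.14 in KO, 4.27-fold lower. Serpinb8 (an inhibitor of furin in humans) was not detected at CL, was at 6.24 and 7.12 in CON at Sec and Mat and at 6.67 and 6.18 in KO, and was 1.91-fold lower at Mat. Serpinb6c was detected in CON at Mat alone (6.78), at least 1.94-fold above KO. With the authors' normalized values the differences at Mat were -0.41 for Serpinb8 and at most -0.37 for Serpinb6c, short of 1.5-fold. Serpinb3a, a mouse relative of the human squamous cell carcinoma antigens, was detected in KO at CL alone (6.06), too close to the lowest detected value for a fold, and its second probe was detected on no array.

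The other members detected on all arrays differed by less than 1 on the log2 scale at every stage. Serping1, the C1 inhibitor that controls complement and contact activation, was at 12.51, 12.20 and 12.54 in CON and 11.94, 11.25 and 11.89 in KO. It was lower at every stage, by 1.49-fold at CL, which did not reach the threshold, 1.94-fold at Sec and 1.57-fold at Mat. Serpinh1 (Hsp47) was at 11.46, 11.39 and 10.90 in CON and at 11.34, 10.87 and 10.30 in KO, lower by 1.51-fold at Mat. Serpinf1 (pigment epithelium-derived factor, which inhibits no protease) was at 14.60, 14.60 and 13.94 in CON and at 14.66, 14.05 and 13.85 in KO, differing by 0.06, -0.55 and -0.09. Serpinb6a stood at 12.06, 12.22 and 12.44 in CON and 11.99, 11.76 and 11.97 in KO, under 1.5-fold throughout. With arrays scaled to a common median instead, its difference at Mat was -0.71, past 1.5-fold. At Mat, where 18.4% of all genes were lower in KO, 2 of the 7 fibroblast and bone markers were lower. Their sums were 84725 in CON and 75625 in KO. Of the 5 detected endothelial markers 4 were lower at Mat, with sums of 8924 in CON and 4925 in KO. The part of these cell types in the lower Serping1 and Serpinh1 was not tested.

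Along the control incisor, 7 of 13 members detected on either array were higher at Mat than at CL, where 17.1% of all genes were, and 3 were lower, where 20.6% were. The 7 were Serpina3n (a log2 difference of 4.12), Spink8 (at least 4.01), Serpinb12 (at least 3.33), Serpinb11 (at least 2.22), Serpinb6b (1.39), Serpinb8 (at least 0.93) and Serpinb6c (at least 0.59). Lower were Klk8 (2.08-fold), Klk10 (at least 2.11-fold) and Serpinf1 (1.58-fold). The members higher at Mat were thus serpins and Spink8. The 3 of 13 lower members lay near the share of all genes, so their count is no result about the kallikreins. With the authors' normalized values Klk10, Serpinb6c and Serpinb8 did not reach 1.5-fold. At a fold of 2 Serpinb6c, Serpinb8 and Serpinf1 were not called. Klk8 and Klk10 were the kallikreins detected in control tissue at CL other than Klk4, which is not a member, and at Mat Klk10 was not detected.

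The comparison of KO with CON at Mat uses the same CON array, so the values are set side by side only. The differences at Mat were -1.49 for Serpina3n, -3.46 for Spink8, -1.60 for Serpinb12, -2.09 for Serpinb6b, -0.93 for Serpinb8 and at most -0.95 for Serpinb6c, and 1.53 for Serpinb11. For Klk8 and Klk10 they were 1.82 and at least 4.70. Within KO itself, Spink8 was at 6.74 at Mat and undetected at CL, and Serpina3n at 10.02 at Mat and 8.51 at CL, so both were brighter at Mat than at CL in KO too.

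**Figure D4:**
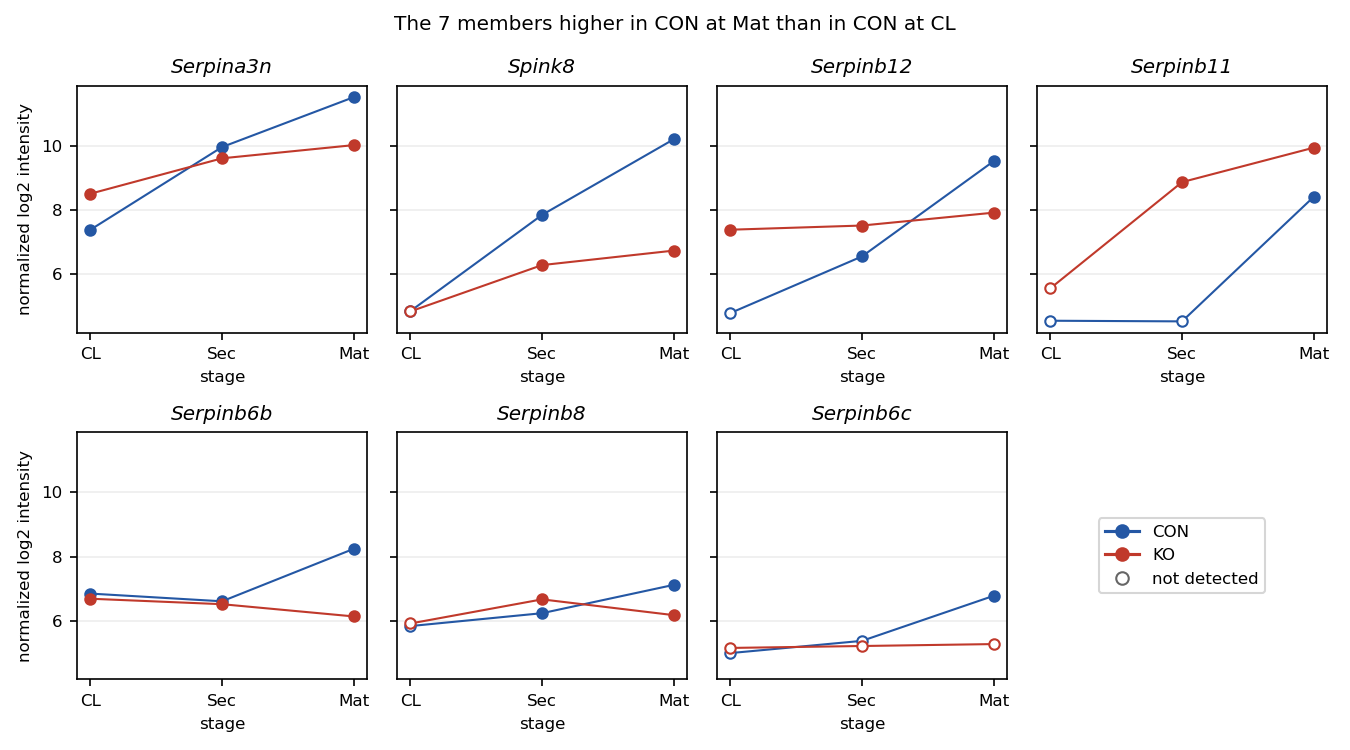
Normalized log2 intensity (y axis) at CL, Sec and Mat (x axis) in CON (blue) and KO (red) for the 7 members that were higher in CON at Mat than in CON at CL, 1 array per point, with open points not detected. At Mat the KO point lies below the CON point in every panel but that of Serpinb11, where it is at 9.94 against 8.41.

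Across the stages, genotype was tested with limma on all 8697 genes detected on at least 3 arrays, with stage as a term, so that a p-value there measures how alike the stages were and not the spread between animals. Of the 13 members tested, 0 passed an adjusted p under 0.05, as did 0 of all genes (0%). At an unadjusted p under 0.05 there were 4 higher members (3.89% of all genes) and 1 lower (5.97%). The higher members were Klk10 by 2.82 ± 0.80 (SE, log2), Serpinb11 by 2.29 ± 0.68, Klk8 by 1.04 ± 0.34 and Klk11, and the lower was Serping1 by -0.73 ± 0.17, each at an adjusted p of 0.496. Klk11 was detected on the KO arrays alone, so it entered the test through the genotype in which it is high, and its fit supports nothing. Serpinb11 was detected on 3 arrays, KO at Sec and Mat and CON at Mat. It too passed the filter through KO, and its fit supports nothing. Spink8 was at -1.68 ± 0.65 with an adjusted p of 0.501. Without the CL arrays, where the genotypes differed least, limma gave Klk10 3.95 ± 0.45 with an adjusted p of 0.0475, among 93 genes called, which also held Klk11. Members seen only in late KO tissue, Klk7 among them, were not in these fits, since they were detected on fewer than 3 arrays.

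Of the genes listed as acting beside the kallikreins in the shedding of the horny layer, 24 were on the array and 6 of them were detected nowhere. Of those detected, 12 of 17 were higher in KO at Sec and 1 was lower (11.7% and 15.2% of all genes). At Mat 10 of 18 were higher and 1 was lower (12.6% and 18.4%). The median differences were 1.17 and 1.21. Bounds made up 8 of the 12 higher calls at Sec and 6 of the 10 at Mat, from probes that only the KO array detected. Those genes entered through KO, so the counts and medians describe the list and support no more than that. The substrate Cdsn (corneodesmosin), also an epidermis marker above, went from 4.73 in CON to 12.51 in KO at Sec and from 4.84 to 13.12 at Mat, and the desmosomal cadherin Dsc1 from 4.68 to 8.89 and from 4.54 to 9.27. The membrane protease St14 (matriptase), an activator of kallikrein precursors, was detected everywhere and higher in KO by 0.83 at Sec and 1.98 at Mat. Of its inhibitors, Spint1 was higher by 1.57 at Sec and 1.18 at Mat, and Spint2 was higher by at least 0.88 at Sec and lower by 1.35 at Mat. Klk7, St14, Cdsn and Dsc1 were thus all higher in KO at Sec and Mat. So was the desmosomal cadherin Dsg1b, detected in late KO tissue alone, by at least 0.91 and 1.23 on the log2 scale. Its relative Dsg1a was detected on no array.

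Of 21 genes of plasminogen activation and coagulation, 9 were detected at Sec (1 higher, 4 lower in KO) and 11 at Mat (1 higher, 3 lower), where the higher shares lay near the 11.7% and 12.6% of all genes. Of all genes, 15.2% were lower at Sec and 18.4% at Mat. The gene higher at Mat was F13a1, detected on both arrays, at 7.29 in CON and 9.35 in KO. The protease Plau (urokinase), which Serpinb2 inhibits, was lower by 0.63 at Sec and differed by -0.54 at Mat, and its receptor Plaur was lower by 0.96 at Mat. Anticoagulant protein S (Pros1) was lower by 0.94 and 0.99 at Sec and Mat. On the KO arrays where Serpinb2 was detected, its target Plau was thus at 6.84 and 6.99, against 7.47 and 7.52 in CON.

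Of 13 proteases of leukocyte and mast cell granules, 3 of 5 detected were higher in KO at Sec (11.7% of all genes) and 4 of 4 at Mat (12.6%). Each of these calls was a bound, from a probe that only the KO array detected, so they entered the count through KO. The 4 at Mat are all mast cell genes. The mast cell protease Mcpt4 was at 5.05 in CON and 8.72 in KO at Sec, and at 5.21 and 9.65 at Mat, and the carboxypeptidase Cpa3 was higher by at least 3.08 and 3.19 on the log2 scale. Chymase (Cma1) was higher by at least 1.68 and 2.40. At CL, 1 of 3 detected genes of this list was higher (1.81% of all genes). It was neutrophil elastase (Elane), higher by 0.97, on the array where Serpina3n was higher as well.

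Protease inhibitors of other families (25 on the array, Spint2 and some others of them in the horny layer list too) went both ways. At Sec 6 of 14 detected were higher in KO (11.7% of all genes) and 3 lower (15.2%). At Mat 4 of 17 were higher (12.6%) and 3 lower, the last a share near the 18.4% of all genes. Bounds made up 5 of the 6 higher calls at Sec and 3 of the 4 at Mat, so those genes entered the counts through KO. Among those higher were the stefin Stfa1, by at least 2.67 and 3.11 at Sec and Mat, and Wfdc18, by at least 3.37 and 3.92. Among those lower were Timp1, an inhibitor of matrix metalloproteinases, by 0.79 and 1.57, and Wfdc2, by 1.04 and 1.28. Like the serpins, this group held members that appeared in late KO tissue and members of the control tissue that were lower there.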

How the data were processed

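The authors hybridized biotin-labelled material to Illumina MouseRef-8 bead arrays and deposited, as extracted in GenomeStudio, the mean bead intensity of each probe, not normalized between arrays and not background-subtracted, with Illumina's detection p-value for each probe and array (a comparison with negative controls). They also deposited intensities that they had normalized between arrays in the same program, used here as an alternative only. No depth exists for arrays, and their number, 6, limits the precision.

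From the non-normalized intensities, background was corrected and arrays were quantile-normalized with neqc of limma 3.58.1 (R 4.3.3, offset 16), and a gene was represented by its brightest probe. Probes were named from the platform annotation (23978 of 25697 with a symbol) and gene chromosomes and start regions from RefSeq tables of GRCm38.p6. The build behind the probes is not given in the sources used here. Groups came from the sample labels. Genotype was tested over the 3 stages with lmFit and eBayes of limma, with stage as a term and Benjamini-Hochberg adjustment over all genes tested. The code of the calls and of the fit was checked on simulated data with known changes. For the calls these changes held no noise and lay in genes detected on both arrays. The rule for bounds was therefore not checked.

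The members and lists were chosen with earlier results of these data known. Levels on all 6 arrays are given for members with a log2 difference of at least 1 either way at Sec or Mat, past 1.5-fold at CL, among the 5 brightest or called both ways, and further members are named with their key values. Up to 4 genes are named per partner list, and more in the list for shedding of the horny layer. The alternatives were a fold of 2, scaling to a common median without quantiles, the authors' normalized values, detection at 0.05, the mean of a gene's probes and, in the fit, leaving out each stage or testing genes detected on at least 1 array.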

Additional observations from a re-analysis of the deposited data

Results flagged for a closer look

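Serpina3n and Serpinb12 differed from the control in opposite directions at different stages. Serpina3n was higher in KO at CL (a log2 difference of 1.12) and lower at Mat (-1.49). Serpinb12 was higher at CL (at least 1.2) and at Sec (0.96) and lower at Mat (-1.6), and with the authors' normalized values the differences at CL and Sec (0.56 and 0.49) did not reach 1.5-fold. With 1 array for each genotype and stage, the difference between stages was not tested.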

How the results depend on the processing

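The counts of higher members at Sec and Mat stayed within 1.5 times of 13 and 14 under every alternative run, between 10 and 13 and between 11 and 16. At CL the authors' normalized values left 1 member higher of 2, with Serpinb12 under the threshold. They also put Klk11, Serpina1e and Serpinb12 under it at Sec, and the mean of probes did so for Klk11 and Serpina12. At a fold of 2, 1 member was lower at Sec of 2 and 4 at Mat of 8, where Serpinb6c, Serpinb8, Serping1 and Serpinh1 lost the call. Scaling to a common median made 4 lower at Sec, adding Serpinf1 and Serpinh1, and 9 lower at Mat, adding Serpinb6a. It moved the median of all genes to -0.15 at Sec and -0.21 at Mat. The authors' normalized values, without background correction, gave 5 lower at Mat, with Serpinb6c, Serpinb8 and Serpinh1 under the threshold. Of the higher members at Mat they put Klk11, Serpina1b and Serpina9 under it. Serpina1b at Mat turned from a bound of 0.65 to -0.45 with the mean of its probes, since the undetected second probe pulls the mean under the lowest detected value. Across the stages, limma gave 2 members called at the adjusted threshold without the CL arrays (Klk10 and Klk11, the second detected in KO alone) and 0 under its other alternatives. At an unadjusted p under 0.05 it gave 2 without the Sec arrays and 13 with genes detected on at least 1 array, against 5. The 13 included members detected on KO arrays alone, such as Klk7, which entered through the genotype in which they are high. This count therefore supports nothing. Of all 9740 genes in that setting, 517 were higher and 480 lower. The share of all calls that were higher at Mat rose from 40.7% to 53.7% at a fold of 2 and to 48.1% with the authors' values, at Sec from 43.5% to 55% and 50.5%, and at CL from 47.5% to 67.4% and 57.3%, while scaling to a common median lowered it to 35.2% at Mat and 39.4% at Sec. Values near the lowest detected level, such as those of Klk13, Klk15, Serpina1d and Serpinb3a, are limited by signal over background.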
